A study of Homo sapiens with 6 samples.

Results

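The microRNA miR-7-5p (hsa-miR-7-5p) was followed in exosomes, small secreted vesicles, of the human colorectal cancer line HCT116. Its members were chosen by name: the entry miR-7-5p and the entries of its opposite strands, miR-7-1-3p and miR-7-2-3p, which are 3 of the 2575 mature miRNA entries counted in each library. miR-7-5p was taken up because its counts were known to differ between the groups, so its difference is given here as a description, without a test. Small RNA was sequenced from exosomes of cells kept for 6 h with ETBF (enterotoxigenic Bacteroides fragilis, a gut bacterium that makes a toxin) at a multiplicity of infection of 500, and of cells given bacterial medium without ETBF. There were 3 libraries titled ETBF and 3 titled untreated, all from HCT116 cells at passage 16 to 19 grown in 1640 medium. Whether replicates were separate cultures is not stated. In 6 of 6 libraries the name of the deposited file carries the other group than the sample title. Groups follow the sample titles here, and every direction below is the reverse if the file names are right. More of a miRNA per vesicle and more vesicles that carry it cannot be told apart in such libraries.

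miR-7 is among the most conserved animal miRNAs. Its 5p strand is the guide, the strand loaded into Argonaute, and it represses messenger RNAs through its seed; the epidermal growth factor receptor (EGFR) and insulin receptor substrates are known targets. It is known from brain, pancreatic islets and other endocrine tissue, and the circular RNA CDR1as carries many sites for it. In human cells that are not neural, the proteins HuR and Musashi 2 are known to hold back processing of the precursor embedded in the HNRNPK transcript.

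The guide is shown with its seed (bases 2 to 8) in capitals, because the same 24 bases lie in 3 genes and the counts of the guide therefore do not name a gene.

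miR-7-5p: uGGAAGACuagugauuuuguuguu

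RefSeq places these bases, in build GRCh38.p14, at chr9:83969811-83969834 on the minus strand (MIR7-1), at chr15:88611856-88611879 on the plus strand (MIR7-2, located within its hairpin) and at chr19:4770700-4770723 on the plus strand (MIR7-3). The submitters' build is GRCh37.p5, and no coordinate was joined to the counts. In GENCODE release 29 the MIR7-1 hairpin lies inside HNRNPK, a gene for an RNA-binding protein, and is intronic in 6 of the 7 HNRNPK transcripts that span it and touches an exon in 1. MIR7-3 is intronic in 9 of 9 spanning transcripts of the long non-coding RNA MIR7-3HG. MIR7-2 has no host gene on its strand and overlaps MIR3529 on the other strand. The hairpins of MIR7-2 and MIR7-3 are shown with the guide in capitals, since they differ outside it.

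MIR7-2: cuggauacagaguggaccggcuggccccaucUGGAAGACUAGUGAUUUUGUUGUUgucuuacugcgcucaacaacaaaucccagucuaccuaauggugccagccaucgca
MIR7-3: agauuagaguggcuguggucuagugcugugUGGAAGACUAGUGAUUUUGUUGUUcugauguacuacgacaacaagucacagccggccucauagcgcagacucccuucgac

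The opposite strand does tell the genes apart. The passenger strands of MIR7-1 and MIR7-2 have 22 bases each and are shown with the 4 bases that differ between them in capitals.

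miR-7-1-3p: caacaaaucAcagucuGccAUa
miR-7-2-3p: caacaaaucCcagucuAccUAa

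Counted from the 5′ end of miR-7-1-3p, miR-7-2-3p carries A10C, G17A, A20U and U21A. The matching stretch of the MIR7-3 hairpin differs from miR-7-1-3p at 5 bases (A7G, U14C, U16G, A20U and U21C); a 3p entry of MIR7-3 was not analysed here. Among the 2260 entries with a sequence in the RefSeq table, 0 others share bases 2 to 8 of miR-7-5p.

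Depth was modest. Libraries held 200207 to 417321 counts, and the 195 entries with enough counts to test held at least 99.6% of each. Of 10 entries in the files listed as gut epithelial markers, not all of them particular to gut, 10 had counts. Entries whose sequences overlap abundant structural RNAs stood apart: 12 such entries, led by miR-7641 and miR-6087, summed to 6140 to 7820 CPM (counts scaled to a common library total) in the titled ETBF libraries, against 164106 to 275342 CPM in the titled untreated libraries. Their part in the result below was not tested, and shares are therefore also given without them.

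In exosomes titled ETBF, miR-7-5p was the entry with the third highest count of each library, and it made up several times more of the library than in exosomes titled untreated. It had 22535, 15457 and 25777 counts in the 3 titled ETBF libraries and 3286, 6638 and 5263 counts in the 3 titled untreated libraries. As a share of the library this was 9.00%, 6.96% and 6.18% in the titled ETBF libraries (exact 95% intervals 8.89 to 9.11, 6.86 to 7.07 and 6.10 to 6.25). In the titled untreated libraries it was 1.64%, 1.80% and 1.79% (1.59 to 1.70, 1.76 to 1.84 and 1.75 to 1.84). These intervals cover counting error only. The lowest titled ETBF library lay 3.43 times above the highest titled untreated library, so the groups did not overlap. The mean share was 7.38% ± 1.46 in the titled ETBF libraries and 1.74% ± 0.0896 in the titled untreated libraries (SD, n = 3 each).

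Titled ETBF replicate 1 had the highest share of miR-7-5p and replicate 3 the lowest. With miR-148a-3p, the most abundant entry, and the structural-overlap entries taken out of the denominator, miR-7-5p made up 13.6%, 12.3% and 12.8% of the titled ETBF libraries and 3.61%, 3.93% and 3.74% of the titled untreated libraries. The ratio of group means was then 3.43, against 4.23 with all counts.

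**Figure D1:**
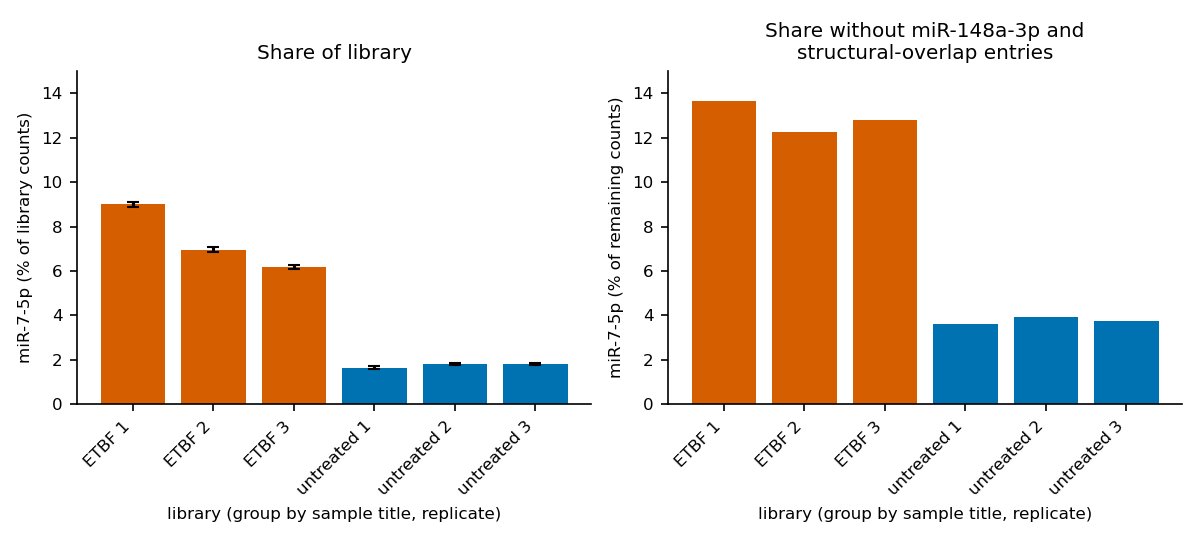
Share of library counts held by miR-7-5p in each library (bars, in percent; left, of all counts with exact 95% counting intervals; right, of the counts left without miR-148a-3p and the structural-overlap entries). The 3 titled ETBF libraries sit at 6.18% to 9.00% on the left, all above the titled untreated libraries at 1.64% to 1.80%.

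On the scale of TMM-normalised CPM, which corrects for composition, miR-7-5p stood at 75891, 69731 and 79838 CPM in the titled ETBF libraries, against 15986, 18334 and 16855 CPM in the titled untreated libraries. Group means were 75153 ± 5094 and 17058 ± 1187 CPM (SD, n = 3 each), and the fitted log2 fold change was 2.14 with a standard error of 0.12. Replicates of a group therefore lay close together, with a coefficient of variation of 6.78% in the titled ETBF libraries and 6.96% in the titled untreated libraries. Counting error alone would give 0.686% and 1.41% for counts of this size. Among the 56 entries with at least 1000 CPM in both groups the median coefficient of variation was 8.33% in the titled ETBF libraries and 7.18% in the titled untreated libraries, so miR-7-5p varied about as much as other abundant entries.

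Of the 195 tested entries, miR-7-5p had the third largest positive log2 fold change, and it stood at position 5 by size in either direction. The structural-overlap entries miR-7641 (-5.18) and miR-6087 (-4.61) had larger changes the other way. The 2 larger positive ones were those of scarce entries. miR-9-3p, from a neurone-enriched miRNA, had 27, 15 and 54 counts in the titled ETBF libraries and 3, 6 and 0 in the titled untreated libraries (log2 fold change 3.40, standard error 0.62). Its counts were exact multiples of 3 in 6 of 6 libraries, so its reads may have been counted once for each of its 3 genes. The standard error takes no account of this. miR-149 had 57, 56 and 84 counts in the titled ETBF libraries and 6, 15 and 13 in the titled untreated libraries (2.59, standard error 0.23). Like miR-9-3p, miR-149 had enough counts for the test only with the titled ETBF libraries, where it is high. Among the 61 entries with at least 1000 CPM in either group, none had a larger positive fold change than miR-7-5p, and the next positive one was that of miR-100-5p with a log2 fold change of 1.81. Across all tested entries, 14.4% were called at an adjusted p under 0.05 by edgeR's quasi-likelihood test, 10.8% as higher and 3.59% as lower in the titled ETBF libraries. Of the 28 calls 21 were higher, against 36 of 42 with upper-quartile scaling and 30 of 34 without the structural-overlap entries. Libraries of the 2 groups did not overlap for 39% of tested entries, and for 19.5% with the titled ETBF libraries higher. Tested entries had a median log2 fold change of -0.03.

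**Figure D2:**
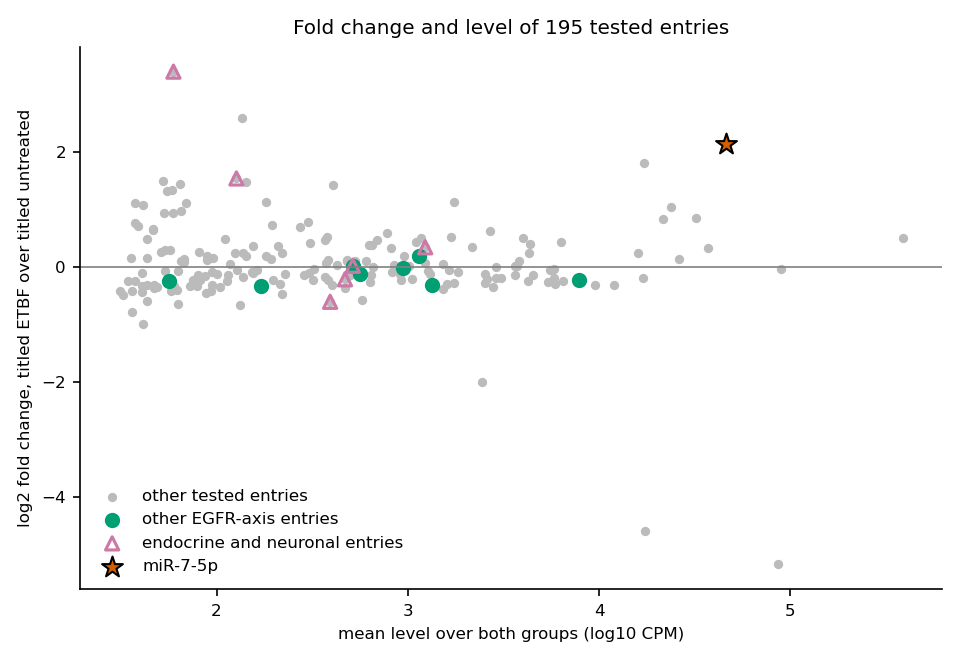
Log2 fold change, titled ETBF over titled untreated, against mean level (log10 CPM) for the 195 tested entries. miR-7-5p (star) lies at 2.14; the other EGFR-axis entries (green circles) lie between -0.33 and 0.19, and the endocrine and neuronal entries (triangles) between -0.61 and 3.40.

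Its place in the order of entries changed accordingly. By CPM, miR-7-5p ranked 3 in the titled ETBF libraries, below miR-148a-3p and miR-21-5p, an abundant oncogenic miRNA. miR-21-5p averaged 88717 ± 3318 CPM there, and let-7i-5p, the next entry down and one of the let-7 growth-restraining miRNAs, 41581 ± 7447 CPM (SD, n = 3); the libraries of neither overlapped with those of miR-7-5p. In the titled untreated libraries miR-7-5p ranked 9 by mean CPM, and 8, 9 or 10 by counts within a library. Its neighbours there were the muscle miRNA miR-1 (18228 ± 881 CPM), let-7g-5p (15542 ± 1387 CPM) and miR-151a-3p (15397 ± 4085 CPM), and all 3 overlapped with it, so that this part of the order was not resolved.

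Of these neighbours, let-7i-5p and let-7g-5p rose in the titled ETBF libraries, with log2 fold changes of 0.85 and 0.83 (edgeR adjusted p = 0.00885 and 0.00249). miR-151a-3p (1.05, adjusted p = 0.0749), miR-1 (-0.20, adjusted p = 0.237), miR-148a-3p (0.51, adjusted p = 0.290) and let-7f-5p (0.33, adjusted p = 0.0746) did not pass. Over the 17 settings tried, however, miR-151a-3p passed in 8, let-7f-5p in 3 and miR-148a-3p in 2. Within each library, where no scaling enters, miR-7-5p had 0.821, 0.797 and 0.926 counts per count of miR-21-5p in the titled ETBF libraries and 0.179, 0.199 and 0.185 in the titled untreated libraries. Per count of let-7f-5p it had 1.77, 1.82 and 1.87 in the titled ETBF libraries and 0.485, 0.543 and 0.524 in the titled untreated libraries. By either measure the groups did not overlap. These ratios reuse the counts by which miR-7-5p was taken up, so they are a description and not a separate result. How many other entries would separate in this way was not computed.

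**Figure D3:**
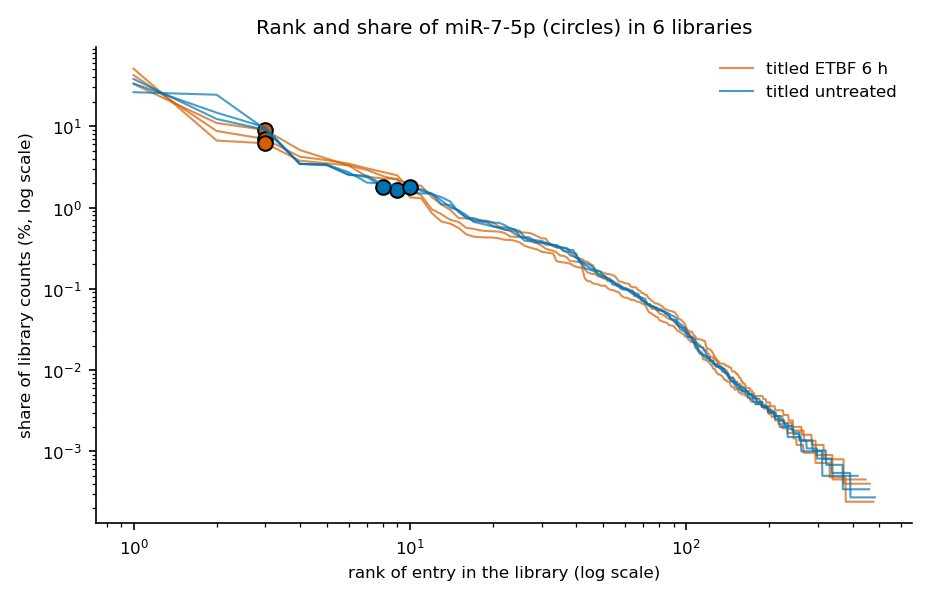
Share of library counts (percent, log scale) against rank (log scale) for all entries with a count, 1 line per library, with miR-7-5p as a circle. The circles sit at rank 3 in the 3 titled ETBF libraries and at ranks 8 to 10 in the 3 titled untreated libraries.

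Summed over entries, shares that were larger in the titled ETBF libraries gained 23.5 percentage points. miR-7-5p held 5.63 of these points, or 23.9%, behind miR-148a-3p with 9.64 points. With the groups of the file names these would be losses, and miR-7641 would hold the most points among the gains. miR-148a-3p itself varied widely between libraries, at 42.3% ± 9.00 in the titled ETBF libraries and 32.6% ± 6.00 in the titled untreated libraries (SD, n = 3 each). The share of miR-7-5p had an SD of 1.46 points in the titled ETBF libraries and 0.0896 points in the titled untreated libraries. On the other side of the balance miR-7641 alone had a change of -16.7 points, with a share of 0.450% in the titled ETBF libraries and 17.1% in the titled untreated libraries.

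Counts of miR-7-5p carry an uncertainty from its 3 genes. For some entries, reads that fit several genes appear to have been counted once per gene: per count of miR-199b-3p, which has the same sequence and 1 gene, miR-199a-3p with its 2 genes had 2.00 counts. Both arms of miR-9, which has 3 genes, had counts that were exact multiples of 3 in 6 of 6 libraries, while 0 of 137 entries with 1 gene did. let-7a-5p, which also has 3 genes, had such counts in only 2 of 6 libraries. Of 26 entries with 2 genes, 5 had even counts in 6 of 6 libraries, against 2 of 137 entries with 1 gene. An odd count does not show that an entry had no reads counted more than once, since miR-199a-3p itself was odd in 1 library. The counts of miR-7-5p were an exact multiple of 3 in 0 of 6 libraries, so they are not made up wholly of reads counted 3 times. Its level in either group may therefore be inflated by up to 3 times, and how far this held in each group was not measured. With the counts of each entry divided by its number of genes, miR-7-5p held 3.49%, 2.61% and 2.27% of the titled ETBF libraries, at ranks 4, 7 and 7. It then held 0.591%, 0.646% and 0.646% of the titled untreated libraries, at ranks 18, 17 and 19. The fitted log2 fold change was 2.16 after that division.

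The passenger of MIR7-1 was found at very low counts and that of MIR7-2 was not found. miR-7-1-3p had 5, 4 and 7 counts in the titled ETBF libraries and 2, 0 and 4 in the titled untreated libraries. It was too scarce for the test across entries, and 2 of the 3 titled untreated libraries lay below the floor of 3 counts. Summed over 3 libraries this was 16 counts, or 19.0 CPM (exact Poisson 95% interval 10.9 to 30.9), in the titled ETBF libraries and 6 counts, or 6.82 CPM (2.50 to 14.8), in the titled untreated libraries. The ratio was 2.79, with an exact 95% counting interval of 1.04 to 8.70. That interval pools the 3 libraries of a group and leaves out the spread between them. The ratio is given without a test, and the interval is too wide to compare it with the fold of the guide. Without titled untreated replicate 2, the library with no count, the log2 value of the ratio was 0.71. Without titled untreated replicate 3 it was 2.38, against 1.48 with all libraries.

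miR-7-2-3p had 0 counts in 6 of 6 libraries, among 1752302 counts in all, where the floor of 3 counts is 1.71 CPM. Summed over 3 libraries, its upper exact Poisson 95% limit was 4.38 CPM in the titled ETBF libraries and 4.19 CPM in the titled untreated libraries. Both arms of miR-3529, which lies opposite MIR7-2, also had 0 counts in every library. Strands were kept apart in the counting as far as other such pairs show. Of 25 pairs of single-gene entries that overlap on opposite strands, 16 had counts and 0 had equal ones; miR-122-5p, for one, held 9362 counts over the 6 libraries and its opposite entry miR-3591-3p held 0. Of the 22 passenger counts of MIR7-1 and MIR7-2 together, all 22 belonged to MIR7-1 (lower exact 95% limit 84.6%). Passenger strands are mostly degraded, so these counts do not give the share of the guide from each gene.

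The guide outnumbered its passenger by far. There were 3986 counts of miR-7-5p per count of miR-7-1-3p in the titled ETBF libraries and 2531 in the titled untreated libraries. As a share of guide plus passenger, miR-7-1-3p made up 0.0251% (0.0143 to 0.0407) in the titled ETBF libraries and 0.0395% (0.0145 to 0.0859) in the titled untreated libraries, and these intervals overlap. Among 13 miRNA families whose guide comes from several genes, that of miR-7 included, the passenger share over all libraries was at position 5 from the lowest, and 2 families had no passenger count at all. In other families 5 passengers averaged at least 5 counts a library: let-7a-3p, miR-16-2-3p, miR-24-2-5p, miR-30c-2-3p and miR-181a-3p. Their shares ran from 0.525% to 2.65% in the titled ETBF libraries and from 0.558% to 2.51% in the titled untreated libraries, and their ratios between the groups from 1.01 to 1.12. Just under that minimum, miR-125b-1-3p had 8, 5 and 9 counts in the titled ETBF libraries and 1, 2 and 4 in the titled untreated libraries, a ratio of 3.29 (exact 95% counting interval 1.36 to 9.11), so that miR-7-1-3p was not alone in such a ratio.

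**Figure D4:**
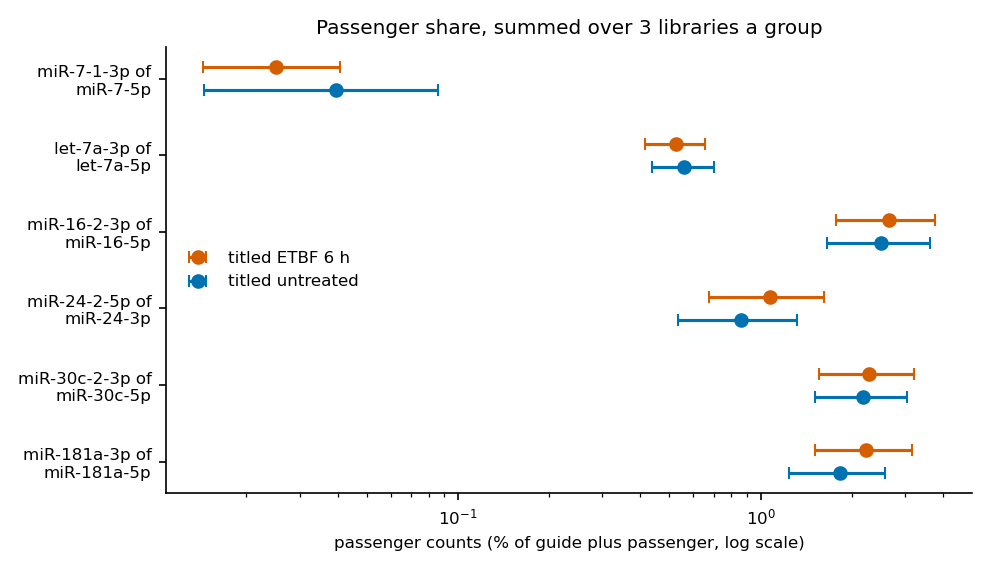
Passenger counts as a percentage of guide plus passenger (log scale), summed over the 3 libraries of each group, with exact 95% counting intervals. miR-7-1-3p sits at 0.0251% in the titled ETBF libraries and 0.0395% in the titled untreated libraries, below the 5 other passengers shown, which sit at 0.525% or more.

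Other miRNAs reported to repress EGFR gave no call that stands apart from the background. Of 10 further entries on that list 8 were tested, and 0 passed by edgeR with adjustment, 2 had an unadjusted p under 0.05, and 0 passed by DESeq2 and 0 by limma-voom with adjustment. Over all tested entries 14.4% were called, so that 0 of 8 is near the background. Their median log2 fold change was -0.17, beside -0.03 for all tested entries. miR-27b-3p, the most abundant of them, averaged 7270 ± 616 CPM in the titled ETBF libraries and 8479 ± 367 CPM in the titled untreated libraries (SD, n = 3 each, adjusted p = 0.138). miR-133a-3p, a muscle miRNA, averaged 1195 ± 107 CPM in the titled ETBF libraries and 1486 ± 92.0 CPM in the titled untreated libraries (adjusted p = 0.0601). miR-146b-5p, known from the control of inflammatory signalling, was the highest in fold change among them, at 1214 ± 99.3 CPM in the titled ETBF libraries and 1062 ± 20.8 CPM in the titled untreated libraries (log2 fold change 0.19, adjusted p = 0.173). Their sequences are shown with the seed in capitals, and none shares that of miR-7-5p.

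miR-27b-3p: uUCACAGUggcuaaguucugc
miR-133a-3p: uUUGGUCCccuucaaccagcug
miR-146b-5p: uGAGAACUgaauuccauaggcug

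miR-671-5p, which directs the cleavage of CDR1as, had 4, 2 and 3 counts in the titled ETBF libraries and 2, 6 and 4 in the titled untreated libraries, too few to test. Its other arm miR-671-3p had 2, 0 and 0 counts in the titled ETBF libraries and 1, 4 and 1 in the titled untreated libraries. Endocrine and neuronal tissues are those in which miR-7 is best known. Of 16 entries listed for them, not all particular to these tissues, 6 were tested, with a median log2 fold change of 0.18. By edgeR's test miR-9-3p and miR-95-3p rose (adjusted p = 0.00705 and 0.0157), miR-375 fell and 3 did not pass. These are 3 calls of 6, beside 14.4% over all tested entries; DESeq2 gave 3 and limma-voom 2. miR-9-3p had enough counts for the test only through the titled ETBF libraries, and with counts divided by gene number it was no longer tested. miR-95-3p, with 7, 38 and 14 counts in the titled untreated libraries, also had enough counts only with the titled ETBF libraries. Both rising calls thus depend on the group where they are high. miR-375, the pancreatic islet miRNA that gut epithelium also makes, averaged 314 ± 35.7 CPM in the titled ETBF libraries and 471 ± 95.6 CPM in the titled untreated libraries (log2 fold change -0.61, adjusted p = 0.0432). It passed in 11 of 17 settings; edgeR's adjusted p was 0.155 when titled ETBF replicate 2 was left out and 0.154 when replicate 3 of that group was. It was 0.138 when titled untreated replicate 2 was left out and 0.0727 when replicate 3 of that group was. miR-9-5p averaged 1385 ± 133 CPM in the titled ETBF libraries and 1081 ± 283 CPM in the titled untreated libraries (edgeR adjusted p = 0.210). The neuronal miR-124-3p had 0 counts in each titled ETBF library and 0, 3 and 0 in the titled untreated libraries, and miR-137 and miR-383-5p had 0 in all libraries. Summed, these entries reached 2863 to 3227 CPM in the titled ETBF libraries and 2121 to 3204 CPM in the titled untreated libraries.

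Sums over the lists for muscle and liver, stroma and gut epithelium were lower in the titled ETBF libraries, without overlap. Singly, 3 of 5, 3 of 8 and 4 of 9 of their tested entries did not overlap. Over all tested entries this was 39%. Muscle and liver markers summed to 20468 to 23601 CPM in the titled ETBF libraries and 25258 to 26358 CPM in the titled untreated libraries; by edgeR 0 of 5 tested passed, 2 had an unadjusted p under 0.05, and 0 passed by DESeq2 and 0 by limma-voom with adjustment. They were led by miR-1 and by the liver miRNA miR-122-5p, which averaged 4932 ± 129 CPM in the titled ETBF libraries and 5892 ± 592 CPM in the titled untreated libraries. Stromal and endothelial markers summed to 13223 to 14492 CPM in the titled ETBF libraries and 15401 to 17344 CPM in the titled untreated libraries; by edgeR 0 of 8 tested passed, 2 had an unadjusted p under 0.05, and 0 passed by DESeq2 and 0 by limma-voom with adjustment. miR-199a-3p and the fibroblast and smooth muscle miRNA miR-143-3p led them. Blood-cell markers, led by miR-142-5p and the red-cell miRNA miR-486-5p, summed to 528 to 694 CPM in the titled ETBF libraries and 669 to 729 CPM in the titled untreated libraries, and so overlapped; by edgeR 0 of 5 tested passed, 1 had an unadjusted p under 0.05, and 0 passed by DESeq2 and 0 by limma-voom with adjustment. The gut epithelial list was led by miR-203a, which is not particular to gut, and by miR-192-5p. It summed to 38431 to 43837 CPM in the titled ETBF libraries and 46180 to 47642 CPM in the titled untreated libraries. Of this, miR-203a averaged 10657 ± 966 CPM and 13194 ± 1135 CPM (SD, n = 3 each). The miR-200 family members of the list had log2 fold changes from -0.17 (miR-141-3p) to 0.02 (miR-429). By edgeR's test 1 of 9 tested, miR-375, fell. In that list 4 had an unadjusted p under 0.05, 2 passed by DESeq2 and 0 by limma-voom with adjustment, so the call depends on the tool; 1 of 9 is near the 14.4% over all tested entries. All 6 libraries are titled as exosomes of HCT116 cells. Where the entries of these lists came from, and their part in the result for miR-7-5p, was not tested.

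The entries whose pattern over the 6 libraries lay nearest to that of miR-7-5p were miR-100-5p, miR-149, miR-139-5p, miR-95-3p and miR-548o-3p. Nearness was the root mean square difference of log2(CPM + 1) after each entry was centred on its own mean, over 133 other tested entries with a mean of at least 100 CPM. It was 0.28 for miR-100-5p, 0.31 for miR-149, 0.47 for miR-139-5p, 0.47 for miR-95-3p and 0.48 for miR-548o-3p, against a median of 1.09. miR-100-5p, which represses mTOR, had 6092, 6734 and 9451 counts in the titled ETBF libraries and 1313, 3401 and 2212 in the titled untreated libraries. Its log2 fold change was 1.81 with a standard error of 0.19. The others were scarcer; miR-139-5p, a miRNA that is often low in colorectal tumours, had 45, 42 and 92 counts in the titled ETBF libraries and 15, 23 and 28 in the titled untreated libraries. miR-95-3p was less even, at 60, 45 and 56 counts in the titled ETBF libraries and 7, 38 and 14 in the titled untreated libraries. The call of miR-95-3p above was made as a member of the endocrine and neuronal list. Since miR-7-5p is high in 1 group, the measure of nearness selects entries that are high in the same group. Their differences are given here without a test. The sequences of 4 of them are shown with the seed in capitals, to be set beside that of miR-7-5p; none shares it.

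miR-100-5p: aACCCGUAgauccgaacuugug
miR-139-5p: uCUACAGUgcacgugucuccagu
miR-95-3p: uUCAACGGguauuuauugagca
miR-548o-3p: cCAAAACUgcaguuacuuuugc

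**Figure D5:**
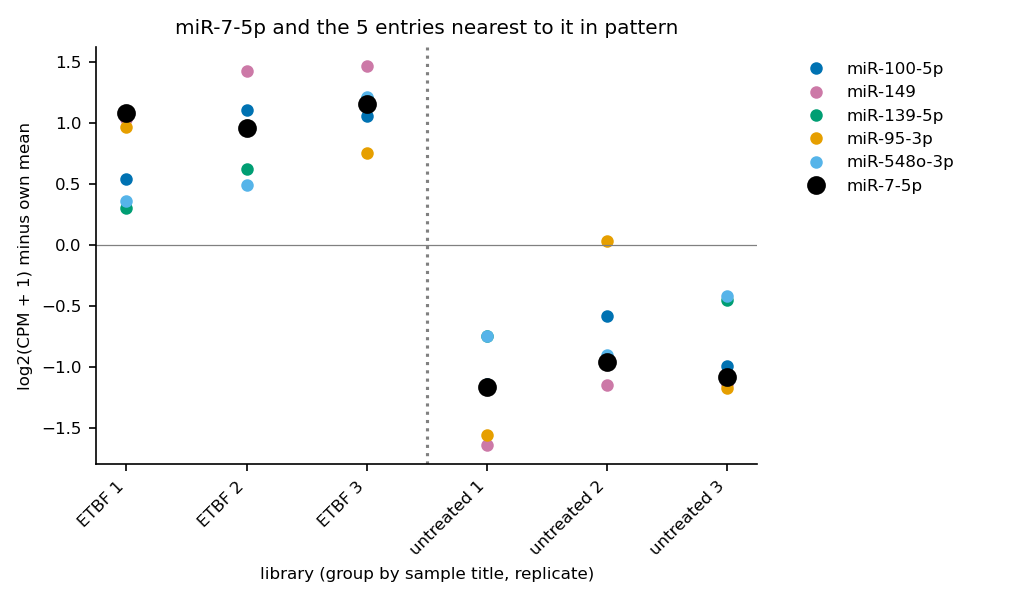
Level of miR-7-5p (large black points) and the 5 entries nearest to it in pattern, as log2(CPM + 1) minus each entry's own mean, in each library; some points lie behind others. miR-7-5p lies near 1 in the 3 titled ETBF libraries and near -1 in the 3 titled untreated libraries, with less scatter inside a group than miR-95-3p.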

How the data were processed

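Counts per mature miRNA entry were deposited for each library, as whole numbers without normalisation. The tools named per the submitters' processing notes are featureCounts, FastQC and Trimmomatic, with build GRCh37.p5. The sources used here name no versions, aligner, miRNA annotation or setting for multi-mapping reads. Per the labels' protocols, 100 ng of total RNA was used per library. Members and lists were chosen with earlier results of these data known. The filterByExpr function of edgeR (minimum count 10) left 195 of 2575 entries. After TMM scaling these were compared by the two-sided quasi-likelihood test of edgeR at a threshold of 0.05, adjusted by Benjamini-Hochberg over the tested entries. A standard error is the size of the log2 fold change divided by the root of the F value. P-values cover only the spread among these libraries, which may be technical. Binomial and Poisson 95% intervals are exact, and 3 counts set the floor, 8.29 to 14.6 CPM in these libraries. Named entries are the members, their neighbours in rank, the 5 nearest in pattern, and the abundant or called entries of 8 lists; miR-146b-5p, the endocrine entries at 0, miR-125b-1-3p, the pair miR-122-5p and miR-3591-3p and the 2 entries with larger folds were added after their values were seen. Numbers of genes per entry and sequences come from RefSeq (GRCh38.p14), and entries without a sequence were taken as having 1 gene. Alternatives were other scalings, filters and tools, the replicate number as a block, division by gene number, and each library left out. Scripts were tested on simulated data. Versions were DESeq2 1.42.0, edgeR 4.0.16 and limma 3.58.1 under R 4.3.3, and scipy 1.17.1.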

Additional observations from a re-analysis of the deposited data

How the results depend on the processing

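The log2 fold change of miR-7-5p lay between 2.07 and 2.23 in all 17 settings, the one reported included, and 2.07 to 2.23 when single libraries were left out. The gain of its share, 5.63 percentage points, was 9.13 without miR-148a-3p and the structural-overlap entries in the denominator and 2.16 with counts divided by gene number. It was 4.83 to 6.24 points when single libraries were left out. The log2 ratio of miR-7-1-3p was 0.71 to 2.38 when single libraries were left out. It was not computed under the 10 CPM filter, DESeq2's test, limma-voom or the block. The 28 calls among all entries became 51 with no filter, 42 with upper-quartile scaling and 17 to 59 when single libraries were left out, namely 59 without titled ETBF replicate 1 and 17 without titled ETBF replicate 3 or titled untreated replicate 3. With the replicate number as a block there were 38 calls, 26 of them shared with the 28, and a log2 fold change of 2.14 for miR-7-5p. Deviations of same-numbered libraries from their group means had correlations of 0.15, 0.07 and -0.01, so the numbers are not taken as pairs. The cause of these shifts was not tested. Changes of sign were seen in 3 uncalled entries. miR-128-3p was -0.0375 with library size only, -0.00376 with the 10 CPM filter, and -0.0898 to 0.161 without single libraries. miR-21-5p was 0.0325 with upper-quartile scaling, 0.0161 without structural-overlap entries and -0.0911 to 0.0149 without single libraries. miR-486-5p was -0.438 to 0.0718 without single libraries. The passenger strands, with 22 counts in all, are limited by depth.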
